A study of Mus musculus with 8 samples.

Results

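B cells are the lymphocytes that make antibodies, and 30 genes typical of the B lineage were followed here through RNA sequencing of mouse pancreatic islets. The 30 genes are a chosen list, matched by symbol to 30 of the 54532 gene identifiers in the count files. The list came into view because B-lineage genes were lower with DMXAA than with DMSO in islets labelled as Sting knockout. Values from that contrast, and from contrasts that share its libraries, are therefore given as a description and not as a test.

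The islets came from wild-type and Sting-/- mice of 25 to 30 weeks, were picked by hand after collagenase digestion and rested overnight in medium. A 3 h exposure followed, either to DMXAA at 50 µg/mL or to DMSO alone. DMXAA is a small molecule that activates mouse STING, the adaptor of the cytosolic DNA sensing pathway. This gave 4 groups of 2 poly(A) libraries each: wild-type DMSO, wild-type DMXAA, knockout-labelled DMSO and knockout-labelled DMXAA. The labels do not describe the knockout allele and do not say whether islets of several mice were pooled or whether replicate libraries stand for separate mice. P-values thus rest on differences between libraries that could be technical.

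Total counts ranged from 15624020 to 19601850 per library. Sting1 itself had 39 and 41 counts (DMSO) and 23 and 39 counts (DMXAA) in the wild type, and 48 and 19 (DMSO) and 35 and 27 (DMXAA) in the knockout-labelled libraries. The groups overlapped, so directions by genotype rest on the labels. The summed CPM (counts divided by the scaled library total) of 15 interferon-stimulated genes was 199 and 211 with DMSO against 4287 and 4438 with DMXAA in the wild type, and between 126 and 189 in the 4 knockout-labelled libraries. Insulin, the defining product of islet beta cells, was abundant in every library, with 2117940 to 3650753 counts of Ins2.

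A B cell recognises its target through a membrane antibody built from immunoglobulin heavy and light chains. The chains signal through CD79A and CD79B, with kinases such as BLK and BTK and the adaptor BLNK as parts of that signalling. Co-receptors raise or lower that signal, and PAX5 is the transcription factor that holds cells in the B lineage. Islets are clusters of hormone-secreting cells with resident macrophages, and B cells are known in the pancreas mainly from infiltrates and from the lymphoid tissue around it. In RNA from whole islets, fewer cells of a type and less RNA per cell cannot be told apart.

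The 30 genes together were highest in the knockout-labelled DMSO libraries. Their summed expression was 218 and 178 CPM there, against 76.0 and 27.5 (DMSO) and 21.6 and 26.8 (DMXAA) in the wild type, with 28.7 and 35.0 in knockout-labelled DMXAA. The group means were 198 ± 28.6, 51.8 ± 34.2, 24.2 ± 3.69 and 31.8 ± 4.48 CPM in that order (SD, n = 2 each). The 7 immunoglobulin constant-region genes made up a large part of this, with 132 and 84.6 CPM in knockout-labelled DMSO and 37.7 CPM in wild-type DMSO replicate 1. In the other 5 libraries they summed to between 0.878 and 3.49 CPM. The 23 other genes summed to 86.6 and 93.3 CPM in knockout-labelled DMSO, and wild-type DMSO replicate 1 was next at 38.2 CPM. The remaining libraries lay between 18.2 and 34.1 CPM. Of that, Ralgps2 alone gave 11.1 to 16.1 CPM and Blnk 2.21 to 4.92 CPM, and neither gene varied much over the libraries. Wild-type DMSO replicate 1 thus stood between the 2 knockout-labelled DMSO libraries and the other 5, and the wild-type DMSO replicates did not resemble each other.

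**Figure D1:**
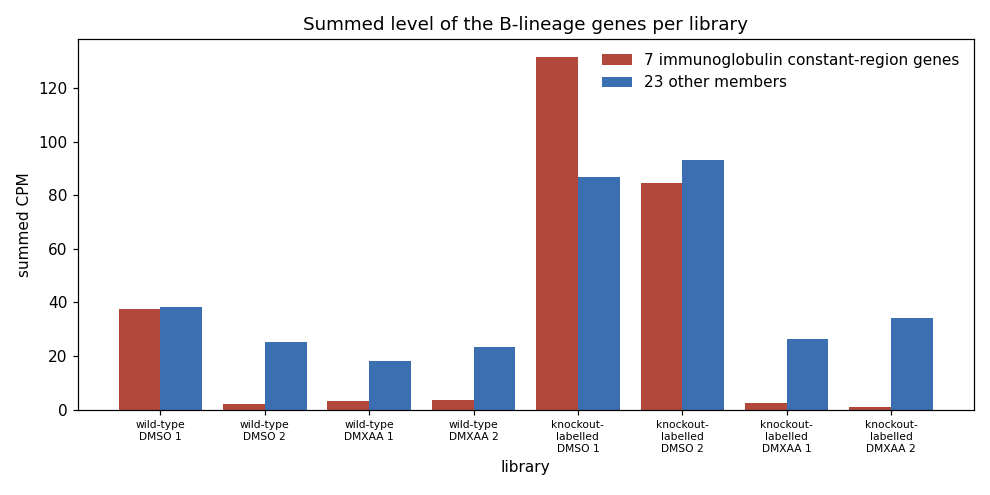
Bars give the summed CPM (y axis) of the 7 immunoglobulin constant-region genes and of the 23 other B-lineage genes in each of the 8 libraries (x axis). The immunoglobulin bars are at 132 and 84.6 CPM in knockout-labelled DMSO and at 37.7 CPM in wild-type DMSO replicate 1, and at 3.49 CPM or less elsewhere.

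All 30 genes had at least 1 count in both knockout-labelled DMSO libraries, and 28 and 29 of them had at least 10 counts. In wild-type DMSO replicate 1, 29 genes had a count and 19 had at least 10. In the remaining 5 libraries between 18 and 25 genes had a count, and between 6 and 8 had at least 10. In 27 of the 30 genes both knockout-labelled DMSO libraries lay above all 6 others, a pattern that 4.9% of the 17055 genes tested showed. The 3 exceptions were Ralgps2, Ccr7 and Fcer2a. The list was proposed with this pattern in view, and nothing is read from the count.

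**Figure D2:**
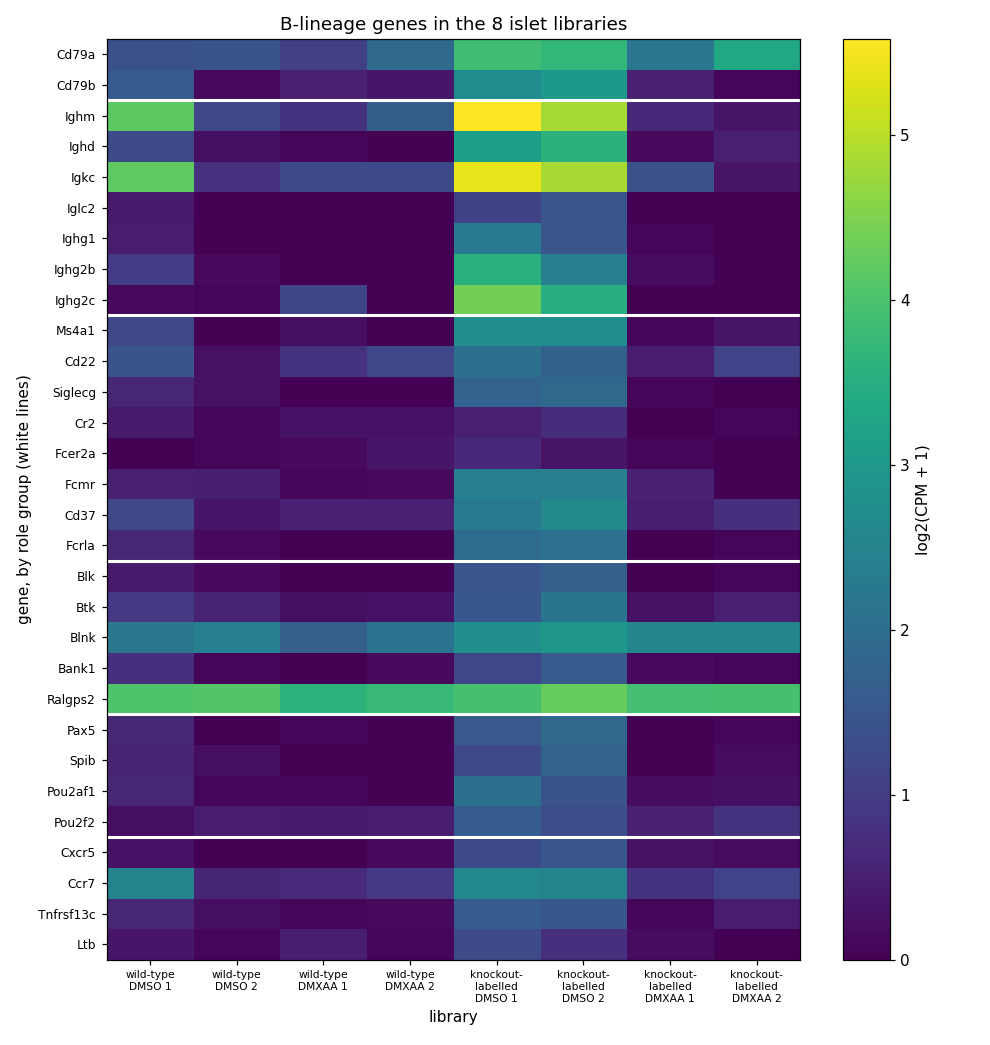
Each row is 1 of the 30 genes, grouped by role, each column 1 library, and the colour gives log2(CPM + 1). Both knockout-labelled DMSO columns are brightest, wild-type DMSO replicate 1 is intermediate for most rows, and the Ralgps2 and Blnk rows are bright in all 8 columns.

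The DMXAA effect on these genes was tested in wild-type islets, whose libraries do not enter the contrast that brought the list into view. The test is weak there: most of the 28 genes tested passed the filter on low counts through the knockout-labelled DMSO libraries and had few wild-type counts, and all 8 libraries share the estimate of the spread. Fitted on the 4 wild-type libraries alone, the filter kept 7 of the 30 genes, 0 were called or had an unadjusted p under 0.05, and the median log2 fold change was -0.49. No B-lineage gene passed the test there. Over all 8 libraries, by edgeR's quasi-likelihood test with adjustment over all genes, 0 of the 28 genes tested were called, while 1.48% of all genes were (1.11% higher and 0.375% lower with DMXAA). The count was also 0 with DESeq2 and with limma-voom. At an unadjusted p under 0.05, 7 of the 28 stood by edgeR, where 11.9% of all genes did, with 5 by limma-voom and 10 of 30 by DESeq2. The smallest adjusted p by edgeR was 0.261, for Siglecg. Fitted log2 fold changes were negative for 23 of the 28 genes and positive for 5, with a median of -2.44, or -1.77 with the 7 genes that had no count with DMXAA set to a floor of 3 counts over the group. Without wild-type DMSO replicate 1 this balance was gone, with 15 positive and 12 negative values and a median of 0.012. The median over all genes was -0.00066. In 11 of the 30 genes both DMSO libraries lay above both DMXAA libraries, against 23.9% of all genes. In 1, Fcer2a, both lay below, against 22.5%.

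The comparison turned on single libraries. A fit without either wild-type DMSO library leaves 1 in that group and cannot measure its spread, so effect sizes alone are given. Without replicate 2, log2 fold changes were -3.56 for Ighm, -3.68 for Igkc, -2.61 for Ccr7, -5.36 for Ighd, -3.88 for Ms4a1 and -2.55 for Cd79b. These were among 26 negative values of 29 members fitted, with a median of -2.63. Without replicate 1, the values were 0.20 for Ighm and 0.88 for Igkc. In 25 of the 30 genes (24 of the 28 tested) replicate 1 lay above replicate 2, against 49.8% of all genes, and in 23 of the 30 it lay above all 4 DMXAA libraries (27.7% of all genes), while replicate 2 did so in 6 (15.5%). Digestive enzyme genes of acinar cells, which surround islets in the pancreas, also set replicate 1 apart, with 7663 CPM over 21 genes against 1541 CPM in replicate 2. They were at 1744 and 3309 CPM in wild-type DMXAA, and the knockout-labelled libraries held 1797 and 2660 CPM (DMSO) and 469 and 399.9 CPM (DMXAA). The acinar sum and the B-lineage sum were both higher in wild-type DMSO replicate 1 than in replicate 2. Both were also lower with DMXAA in knockout-labelled islets. The acinar sum was lower in the knockout-labelled DMSO libraries than in wild-type DMSO replicate 1, while the B-lineage sum was higher. From wild-type DMSO replicate 2 to the wild-type DMXAA libraries the acinar sum was higher. The sum of the 30 genes was lower, at 27.5 against 21.6 and 26.8 CPM. Ralgps2, which was high in every library, went from 16.1 to 11.1 and 12.7 CPM. The 7 immunoglobulin genes were higher, at 2.31 against 3.39 and 3.49 CPM. The part of acinar tissue in the result was not tested.

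In the contrasts that share knockout-labelled libraries, calls are listed with the background and nothing is read from them. With DMXAA in knockout-labelled islets 16 of the 28 genes tested were called lower, against 0.211% of all genes, and 0 higher, against 0.164% (0.375% in either direction). In all 30 genes both DMSO libraries lay above both DMXAA libraries there, as in 17.7% of all genes. The median fitted log2 fold change was -4.41, or -4.26 with Ighg2c and Iglc2 set to the floor, and among the genes with a count under DMXAA single values ran from -6.54 for Fcrla (SE 0.91) and -6.52 for Ighm (SE 1.62) to -0.21 for Ralgps2 (SE 0.19). Limma-voom called 0 of the 28 genes and 0 of all 17055, the older form of the quasi-likelihood test called 4, and DESeq2 called 13. The count was 2 without knockout-labelled DMSO replicate 1, 2 without replicate 2, 1 without knockout-labelled DMXAA replicate 1 and 3 without replicate 2. Calls over all genes, in either direction, fell likewise from 64 to 3, 6, 14 and 21 in these fits, and 0 of the 16 were called in all 8 fits that left out a library. Against wild-type islets under DMSO, 6 genes were called higher in knockout-labelled islets, where 0.182% of all genes were, and 0 lower, where 0.041% were (0.223% in either direction). These were Ighg2c, Ighd, Fcmr, Cd79a, Fcrla and Ighg2b. The count was 2 without wild-type DMSO replicate 2 and 1 and 2 without knockout-labelled DMSO replicate 1 or 2, where all genes gave 240, 3 and 6 calls against 38. Of the 6, 0 were called in all 8 fits. Under DMXAA 0 of 28 genes were called between the genotype labels by edgeR, where 2.39% of all genes were (1.02% higher and 1.37% lower). Of the 28, 3 had an unadjusted p under 0.05, where 13.0% of all genes did, and DESeq2 called 1. This contrast also rose to 2 calls without wild-type DMXAA replicate 2 and to 1 without knockout-labelled DMXAA replicate 1. The difference between the 2 treatment effects was called for 1 gene, Ighg2c, as lower in the knockout-labelled islets, where 0.528% of all genes were lower and 0.668% higher (1.2% in all).

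**Figure D3:**
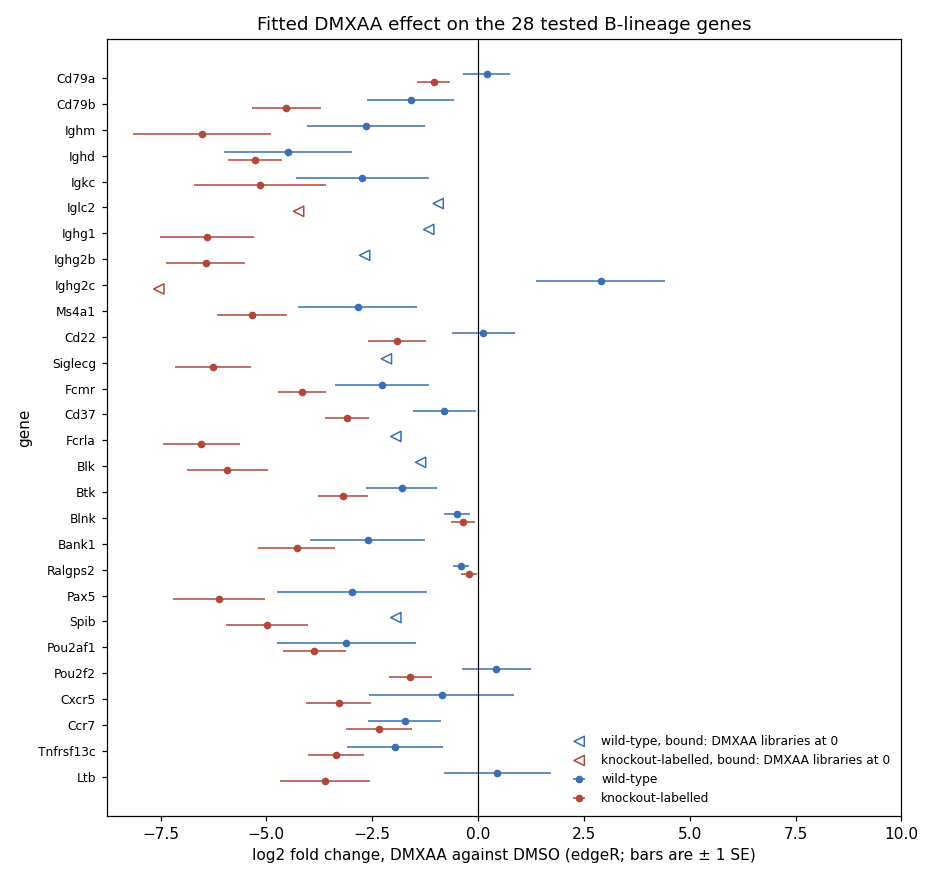
Points give the fitted log2 fold change with DMXAA against DMSO (x axis, bars are ± 1 SE) for each of the 28 genes tested (y axis), in wild-type and in knockout-labelled islets. Open triangles mark a bound where both DMXAA libraries had no count. Ralgps2 and Blnk lie near 0 in both genotypes, and the wild-type bars are wide for most genes.

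Of the 30 genes 28 passed the filter on low counts, Cr2 and Fcer2a did not, and only 8 reached 10 counts in at least 4 libraries. With 2 libraries against 2, an exact permutation test of a single gene cannot give a two-sided p below 0.333.

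The constant regions of the IgG subclasses are close relatives, and how far reads could be shared between them was checked on the GENCODE transcripts (mm10). The longest run of identical bases between Ighg2b and Ighg2c was 78, between Ighg1 and Ighg2b it was 59, and between Ighg2b and Ighg3 it was 88. Between the lambda constant regions Iglc2 and Iglc3 it was 79. No stretch of 150 bases, the length of a read, was identical between any pair of the 11 constant-region genes compared. The longest runs of 2 IgG member pairs, and of Iglc2 with Iglc3, which is no member, are shown in capitals with 12 bases of their own gene on each side in lower case, 5′ to 3′ on the minus strand, since a shorter aligned piece that lies within the capitals could be assigned to either gene.
Ighg2b chr12:113306857-113306958: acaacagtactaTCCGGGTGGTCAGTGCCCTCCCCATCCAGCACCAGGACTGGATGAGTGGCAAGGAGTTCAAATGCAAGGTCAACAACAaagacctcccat
Ighg2c chr12:113287857-113287958: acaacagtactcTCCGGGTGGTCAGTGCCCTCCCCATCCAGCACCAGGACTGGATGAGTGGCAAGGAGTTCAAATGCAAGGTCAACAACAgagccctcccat
Ighg1 chr12:113327464-113327546: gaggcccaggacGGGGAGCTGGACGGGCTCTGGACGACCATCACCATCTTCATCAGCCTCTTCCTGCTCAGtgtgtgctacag
Ighg2b chr12:113304931-113305013: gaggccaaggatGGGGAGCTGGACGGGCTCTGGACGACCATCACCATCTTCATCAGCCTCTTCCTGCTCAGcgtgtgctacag
Iglc2 chr16:19198658-19198760: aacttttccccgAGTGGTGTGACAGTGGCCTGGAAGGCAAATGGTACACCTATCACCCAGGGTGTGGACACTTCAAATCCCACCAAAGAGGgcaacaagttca
Iglc3 chr16:19065487-19065589: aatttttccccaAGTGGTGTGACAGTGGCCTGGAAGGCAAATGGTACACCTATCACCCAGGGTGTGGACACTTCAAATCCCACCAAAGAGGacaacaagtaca
All 6 stretches lie in coding exons. How the authors' counting treated a read that fits 2 of these genes is not given in the sources used here. The split between IgG subclasses, and between lambda genes, is uncertain.

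Ighm (ENSMUSG00000076617, mm10 chromosome 12, 113418558 to 113422730, minus strand) encodes the constant region of IgM, the first antibody a B cell carries. It had 704 and 483 counts in knockout-labelled DMSO, against 327 and 26 (DMSO) and 14 and 41 (DMXAA) in the wild type, with 11 and 4 in knockout-labelled DMXAA (replicates 1 and 2, here and below). Igkc, the constant region of the kappa light chain, followed it closely, with 621 and 491, 331 and 15, 25 and 26, and 33 and 4 counts in the same order of groups. For both genes wild-type DMSO replicate 1 came next after the 2 knockout-labelled DMSO libraries, far above its own replicate, and the 5 other libraries were low. The wild-type log2 fold change with DMXAA was -2.65 for Ighm (SE 1.40, edgeR adjusted p = 0.522) and -2.73 for Igkc (SE 1.57, adjusted p = 0.551).

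Ighd encodes IgD, carried with IgM by mature B cells that have not met their target. It had 115 and 196 counts in knockout-labelled DMSO, against 26 and 3 (DMSO) and 1 and 0 (DMXAA) in the wild type, with 2 and 7 in knockout-labelled DMXAA. Ighg2c, an IgG subclass made after class switching, went its own way in the wild type. Its counts were 298 and 185 in the knockout-labelled islets under DMSO and 0 in both libraries under DMXAA, at least 186-fold lower (floor of 3 counts for the 2 libraries together). In wild-type libraries it had 2 and 1 counts under DMSO against 23 and 0 under DMXAA, so that its 23 counts came from 1 library. Ighg1, Ighg2b and the lambda gene Iglc2 had between 17 and 161 counts in the knockout-labelled DMSO libraries, between 6 and 18 in wild-type DMSO replicate 1, and 3 or fewer in the other 5. By the same floor, the pooled wild-type counts with DMXAA were at least 6.40-fold lower for Ighg2b and at least 2.24-fold lower for Ighg1. This floor leaves out the spread between replicates, and neither change was called (edgeR adjusted p = 0.392 and 0.507). Most wild-type DMSO counts of Ighg2b, and all of those of Ighg1, came from replicate 1.

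The make-up of the heavy-chain counts by class differed between libraries that were high in B-lineage RNA. IgA was added to the comparison through Igha, and the IgG counts include Ighg3. Neither gene is a member of the list. In wild-type DMSO replicate 1, IgA made up 32.1% of 563 heavy-chain counts (95% Wilson interval 28.4 to 36.1%) and IgG 5.15% (3.61 to 7.30%). In knockout-labelled DMSO, IgA made up 13.1% of 1636 counts in replicate 1 (11.5 to 14.8%) and 16.9% of 1207 in replicate 2 (14.9 to 19.1%). IgG made up 36.9% (34.6 to 39.2%) and 26.8% (24.4 to 29.4%) there. IgM was the leading class in all 3 of these libraries, at 58.1%, 43.0% and 40.0%. IgD differed between the knockout-labelled DMSO replicates themselves, at 7.03% (5.89 to 8.37%) and 16.2% (14.3 to 18.4%). The other 5 libraries held between 12 and 72 heavy-chain counts each, and their shares have wide intervals. Such intervals hold counting error alone. They take reads as independent, although PCR copies of 1 molecule, and transcripts of 1 cell, count as separate reads. Class make-up was not tested between the genotype labels.

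**Figure D4:**
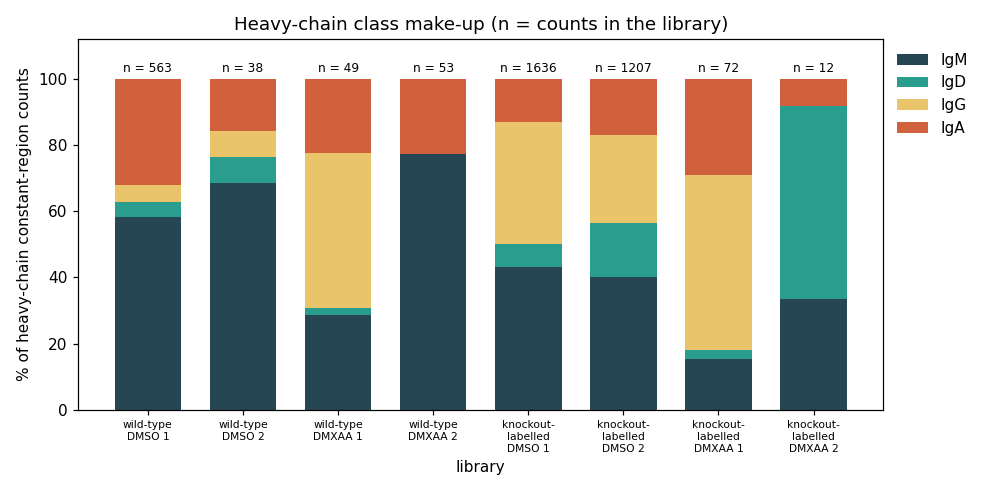
Stacked bars give the percentage of heavy-chain constant-region counts by antibody class (y axis) in each library (x axis), with the number of counts above each bar. IgA takes 32.1% in wild-type DMSO replicate 1 against 13.1% and 16.9% in knockout-labelled DMSO, and 5 of the bars rest on 72 counts or fewer.

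Light chains were mostly kappa where there were enough counts to tell. The lambda counts include Iglc1, Iglc3 and Iglc4, which are no members of the list, beside Iglc2. Kappa took 95.4% of 651 light-chain counts in knockout-labelled DMSO replicate 1 (95% Wilson interval 93.5 to 96.8%), 91.4% of 537 in replicate 2 (88.8 to 93.5%) and 95.4% of 347 in wild-type DMSO replicate 1 (92.6 to 97.1%). In the 5 other libraries the total was 33 light-chain counts or fewer.

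Variable genes, which encode the part of the antibody that touches its target, were not on the list. They form the same chains as the constant regions on the list, so their totals are no separate evidence. The annotation holds 218 of them, and counts in the variable genes totalled 692 and 438 in knockout-labelled DMSO, against 322 and 25 (DMSO) and 29 and 21 (DMXAA) in the wild type, with 35 and 12 in knockout-labelled DMXAA. The 2 knockout-labelled DMSO libraries had counts in 89 and 66 variable genes, and 44 were shared, which is 49.4% of the first set and 66.7% of the second. Their most counted genes were different. Among the 10 highest in each, 1 was shared, and 6 genes with at least 20 counts in replicate 1 had none in replicate 2, while the reverse held for 1, Igkv1-88. Igkv6-20, for example, had 43 counts in replicate 1 and none in the 7 other libraries. Wild-type DMSO replicate 1 was led by Igkv3-2, with 88 of its 322 counts (27.3%, 95% Wilson interval 22.8 to 32.4%), a gene with 6 counts or fewer in any other library. In knockout-labelled DMSO the leading gene took 6.21% (4.65 to 8.27%) and 7.53% (5.41 to 10.4%). Variable genes are near copies of one another, so counts of single ones are uncertain.

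**Figure D5:**
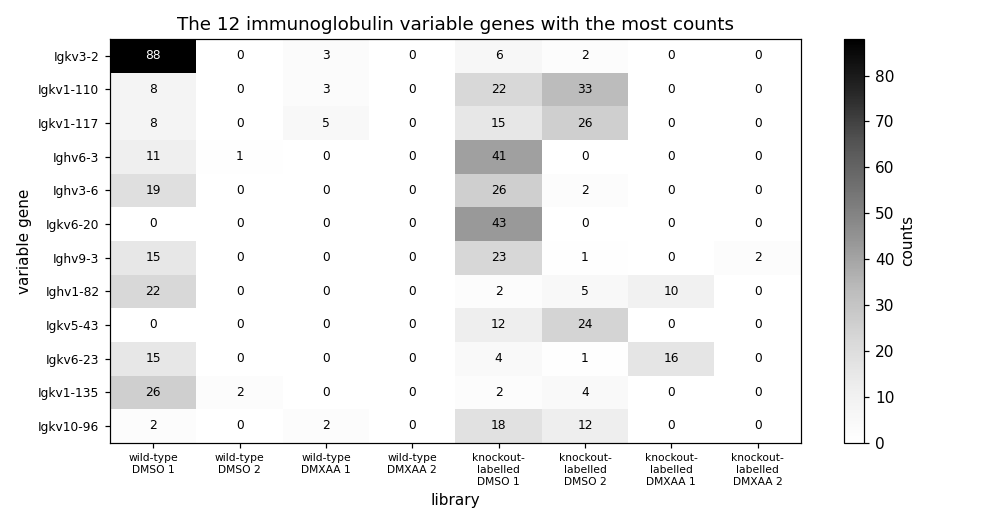
Cells give the counts of the 12 immunoglobulin variable genes with the most counts over all libraries (rows) in each library (columns). Igkv3-2 stands out with 88 counts in wild-type DMSO replicate 1, and Igkv6-20 has 43 counts in knockout-labelled DMSO replicate 1 alone.

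The 2 signalling chains of the receptor had different patterns. CD79A and CD79B act as a pair, and their genes had similar annotated exon lengths of 1457 and 1431 bases. Cd79b (ENSMUSG00000040592, chromosome 11, 106311341 to 106314762) had 84 and 121 counts in knockout-labelled DMSO, against 39 and 2 (DMSO) and 8 and 5 (DMXAA) in the wild type, with 9 and 1 in knockout-labelled DMXAA. Cd79a (ENSMUSG00000003379, chromosome 7, 24897381 to 24902197) had 206 and 213, 31 and 35, 20 and 53, and 74 and 155 counts in the same order. Knockout-labelled DMXAA replicate 2 thus had 155 counts of Cd79a beside 1 count of Cd79b, and wild-type DMSO replicate 2 had 35 beside 2. Per kilobase of exon the group means of Cd79a were 8.85 CPM in knockout-labelled DMSO and 4.34 CPM in knockout-labelled DMXAA, those of Cd79b 4.35 and 0.173 CPM. No annotated gene overlaps either of them. In wild-type islets the log2 fold change with DMXAA was 0.20 for Cd79a (SE 0.56, edgeR adjusted p = 0.912) and -1.59 for Cd79b (SE 1.03, adjusted p = 0.551). The value of Cd79b was 1.75 without wild-type DMSO replicate 1, and that of Cd79a was -0.63 without wild-type DMXAA replicate 2.

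Surface receptors were low outside the knockout-labelled DMSO libraries and wild-type DMSO replicate 1, with 1 exception. Ms4a1 encodes CD20, a membrane protein of mature B cells. It had 86 and 98 counts in knockout-labelled DMSO, against 24 and 0 (DMSO) and 3 and 0 (DMXAA) in the wild type, with 1 and 4 in knockout-labelled DMXAA. Fcmr, the receptor for the constant part of IgM, had 65 and 77, 8 and 8, 1 and 2, and 9 and 0 counts in the same order. Cd37, a tetraspanin of lymphocytes, had 60 and 91, 24 and 5, 8 and 8, and 8 and 12 counts, and overlaps Tead2 on the opposite strand. The wild-type log2 fold changes with DMXAA were -2.85 for Ms4a1 (SE 1.40, edgeR adjusted p = 0.439), -2.26 for Fcmr (SE 1.11, adjusted p = 0.439) and -0.80 for Cd37 (SE 0.75, adjusted p = 0.685). Without wild-type DMSO replicate 1 the direction turned for Cd37, to 0.78, and for Ms4a1, which then had no DMSO count left.

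Cd22, an inhibitory co-receptor of the B cell receptor, was the exception. Its counts were 48 and 41 in knockout-labelled DMSO, against 33 and 4 (DMSO) and 14 and 25 (DMXAA) in the wild type, with 7 and 20 in knockout-labelled DMXAA, a narrower range than those of Ms4a1, Fcmr and Cd37. Its log2 fold change with DMXAA in wild-type islets was 0.12 (SE 0.75, edgeR adjusted p = 0.964), and -0.75 without wild-type DMSO replicate 2. Siglecg, another inhibitory receptor, and Fcrla, an intracellular relative of the Fc receptors, had 36 to 58 counts in knockout-labelled DMSO, 2 to 10 in wild-type DMSO, and 1 or 0 in the 4 DMXAA libraries. Cr2, the complement receptor CD21, and Fcer2a, the low-affinity IgE receptor CD23, had 11 counts or fewer in every library and were not tested.

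Signalling genes split into those that tracked the surface receptors and those that did not. Blk, a Src-family kinase, had 27 and 39 counts in knockout-labelled DMSO, against 6 and 2 (DMSO) and 0 and 0 (DMXAA) in the wild type, with 0 and 1 in knockout-labelled DMXAA. Btk, the kinase downstream of the receptor, had 28 and 62, 17 and 9, 3 and 4, and 4 and 7 counts. Bank1, a scaffold protein, ran from 19 and 36 counts in knockout-labelled DMSO to 13 or fewer elsewhere. Blnk, the adaptor, was counted in every library, with 86 and 120, 68 and 87, 41 and 65, and 101 and 84 counts. Ralgps2, a guanine nucleotide exchange factor for Ral, was higher still, with 219 and 323, 297 and 327, 207 and 245, and 289 and 249 counts. In CPM the knockout-labelled DMSO libraries were the 2 highest for Blnk but not for Ralgps2, and the ranges were narrow. Their log2 fold changes with DMXAA in wild-type islets were -0.49 for Blnk (SE 0.31, edgeR adjusted p = 0.533) and -0.41 for Ralgps2 (SE 0.19, adjusted p = 0.427). In wild-type DMSO replicate 2, where Ms4a1 and Pax5 had no count, Blnk had 87 counts and Ralgps2 had 327.

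All 4 transcription factors were highest in knockout-labelled DMSO. Pax5 had 29 and 47 counts there, against 10 and 0 (DMSO) and 1 and 0 (DMXAA) in the wild type, with 0 and 1 in knockout-labelled DMXAA. Spib, an Ets factor of B cells and plasmacytoid dendritic cells, had 20 and 42, 9 and 3, 0 and 0, and 0 and 2 counts. Pou2af1, a coactivator that works with octamer-binding factors, had 48 and 30, 10 and 1, 1 and 0, and 3 and 3 counts. Pou2f2, one of those octamer-binding factors, had 31 and 27, 3 and 7, 6 and 7, and 9 and 13 counts. It was thus the only factor of the 4 that wild-type DMSO replicate 1 did not have in larger number than replicate 2. With DMXAA in the wild type the fitted log2 fold change was -2.98 for Pax5 (edgeR adjusted p = 0.510) and 0.43 for Pou2f2 (adjusted p = 0.860). Spib had no count there, and its pooled counts were at least 3.84-fold lower by the floor of 3 counts. That bound leaves out the spread between replicates, and Spib was not called (edgeR adjusted p = 0.369). Without wild-type DMSO replicate 1 the sign of Pax5 turned as well, with no DMSO count left.

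Genes of trafficking and survival showed the same order in most cases. Ccr7, the chemokine receptor that brings lymphocytes and dendritic cells into lymph nodes, had 76 and 83 counts in knockout-labelled DMSO, against 90 and 10 (DMSO) and 11 and 18 (DMXAA) in the wild type, with 16 and 20 in knockout-labelled DMXAA. Wild-type DMSO replicate 1 was as high as the knockout-labelled DMSO libraries for this gene. Cxcr5, the receptor that guides B cells into follicles, had 21 and 32, 4 and 0, 0 and 2, and 4 and 2 counts, and overlaps the more abundant Bcl9l on the opposite strand. Tnfrsf13c, the receptor for the survival factor BAFF, had 31 and 33, 10 and 3, 1 and 2, and 1 and 6 counts. Ltb, a lymphotoxin that shapes lymphoid tissue, was low, with 22 and 12, 5 and 1, 7 and 1, and 3 and 0 counts. The wild-type change of Ccr7 with DMXAA was -1.74 on the log2 scale (SE 0.87, edgeR adjusted p = 0.462), and 0.65 without wild-type DMSO replicate 1.

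Related genes outside the list were counted from lists chosen with earlier results known. Of 37 other B cell genes tested, 16 had both knockout-labelled DMSO libraries above the other 6, against 4.9% of all genes. In the knockout-labelled treatment contrast 8 of the 37 were called lower (0.211% of all genes) and 0 higher (0.164%). Of 20 genes of B cell receptor signalling, many of them used by other cells too, 0 were called in that contrast (0.375% in either direction). Of the same 20, 7 showed the pattern of high knockout-labelled DMSO libraries (4.9% of all genes). The treatment contrast brought the members into view, and nothing is read from its counts. The median log2 fold change was -1.08 for the first of these lists and -0.10 for the second.

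In wild-type islets 2 of the 37 other B cell genes rose with DMXAA (1.11% of all genes did) and 0 fell (0.375%). Cd69, an early activation marker of lymphocytes, went from 5 and 3 counts under DMSO to 52 and 41 under DMXAA (log2 fold change 3.55, SE 0.62, edgeR adjusted p = 0.00595). Which cells held this RNA was not tested. The same wild-type DMXAA libraries had 3 and 0 counts of Ms4a1, and 8 and 5 over 6 T cell receptor and CD3 genes. In knockout-labelled islets the counts of Cd69 were 10 and 23 (DMSO) against 1 and 5 (DMXAA). This wild-type call missed the threshold when wild-type DMSO replicate 1 was left out (edgeR adjusted p = 0.0546) or when wild-type DMXAA replicate 1 was (adjusted p = 0.0587). Mef2c, a factor also found in muscle, vessels and myeloid cells, went from 224 and 215 counts under DMSO to 427 and 344 under DMXAA (log2 fold change 0.87, SE 0.20, edgeR adjusted p = 0.0494). Its edgeR adjusted p without a library lay above 0.05 in 6 of the 8 fits, up to 0.616 without wild-type DMXAA replicate 1. Of the 20 receptor signalling genes 1 fell (0.375% of all genes did) and 0 rose (1.11%). It was Inpp5d, which encodes the phosphatase SHIP-1 (log2 fold change -0.92, SE 0.19, edgeR adjusted p = 0.0209). When each library was left out in turn, 5 of the 8 fits lost that call, with edgeR adjusted p up to 0.269 without wild-type DMXAA replicate 2.

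Plasma cells, which secrete antibody, share the immunoglobulin genes with B cells. Their joining chain gene Jchain had 99 and 59 counts in knockout-labelled DMSO, against 86 and 16 (DMSO) and 10 and 4 (DMXAA) in the wild type, with 7 and 3 in knockout-labelled DMXAA. Igha had 214 and 204, 181 and 6, 11 and 12, and 21 and 1 counts in that order. For both genes wild-type DMSO replicate 1 came close to the knockout-labelled DMSO libraries, while it had 24 counts of Ms4a1 against 86 and 98 there. The plasma cell genes Xbp1 and Sdc1, which other secretory and epithelial cells express too, showed no such order, with 7367 to 9858 counts of Xbp1 over the 8 libraries. Mzb1, a chaperone of antibody-secreting cells, had 35 and 49, 20 and 14, 12 and 13, and 9 and 6 counts in the order above. It was the 1 plasma cell gene of 9 tested that was called lower with DMXAA in knockout-labelled islets, against 0.211% of all genes. Ighg3, a further IgG subclass, had 85 and 31 counts in knockout-labelled DMSO and 34 in knockout-labelled DMXAA replicate 1, with 2 or fewer in the other 5. The receptor gene Tnfrsf17 had 2 counts in knockout-labelled DMSO replicate 1 and 0 in the other 7 libraries.

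Markers of T cells were high in the same libraries as the B-lineage genes. The 6 genes of the T cell receptor and CD3 on that list summed to 78 and 91 counts in knockout-labelled DMSO, against 31 and 4 (DMSO) and 8 and 5 (DMXAA) in the wild type, with 4 and 5 in knockout-labelled DMXAA. Of 24 T cell markers, 14 had both knockout-labelled DMSO libraries above the other 6, of which 9 were among the 14 tested (4.9% of all genes tested). The summed CPM of the list ran only from 43.2 to 68.8, and Skap1, Il7r and Thy1 made up most of it. In the wild type 1 of the 14 tested fell with DMXAA (0.375% of all genes did) and 0 rose (1.11%). It was Il7r (log2 fold change -1.60, SE 0.36, edgeR adjusted p = 0.0444), with 183 and 123 counts under DMSO and 48 and 49 under DMXAA. That call was lost with limma-voom (adjusted p = 0.0961) and in 5 of 8 fits that each omitted a library, up to an edgeR adjusted p of 0.529 when wild-type DMSO replicate 1 was omitted. The part of T cells in the result was not tested. In other lists, 0 of 14 macrophage, 0 of 21 acinar and 0 of 14 endothelial genes showed the pattern. The count was also 0 for 10 fibroblast and 9 matched lymph node stroma genes. Of the stroma genes 5 were tested, and 2 had 0 counts in every library. Lists this short cannot tell 0 from the 4.9% of all genes, and nothing is read from these counts. The pattern appeared in 2 of 6 MHC class II genes, H2-DMa and H2-DMb1. It also appeared in 1 of 10 NK cell genes, Il2rb, and in 1 of 8 neutrophil genes. The 3 named were chosen after their values were seen. Of the lymph node stroma list, Glycam1 of high endothelial venules had 3 counts in wild-type DMXAA replicate 1 and 0 in the other 7 libraries, and Ccl21a had 0 in all 8.

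The 15 genes outside the list whose levels tracked the 23 non-immunoglobulin members most closely over the 8 libraries were taken next. Likeness was measured as Pearson's r of log2(CPM + 1), and the 15 values lay between 0.942 and 0.998 among 12853 genes ranked. The libraries fall into high and low ones, so r describes that split and no p is given. Coro1a, an actin-binding protein of leukocytes, had 211 and 255 counts in knockout-labelled DMSO, against 99 and 54 (DMSO) and 29 and 42 (DMXAA) in the wild type, with 63 and 66 in knockout-labelled DMXAA. Sash3, a lymphocyte adaptor, had 90 and 106, 22 and 6, 0 and 2, and 5 and 12 counts. H2-Ob, a class II chaperone subunit of B cells, was also among the 15, as were Gimap3, Arhgap45, Rac2, Il21r, Rasgrp2, Ncf4 and Arhgdib. Zfp747, Zbtb25, Nasp and Krt10 were among them too, of which Krt10 varied least and ran from 5.66 to 6.80 CPM.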

How the data were processed

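Raw counts per gene for 8 libraries were deposited by the authors. Per the submitters' processing notes, HISAT2, HTSeq and mm10 were used; no version is recorded. Not given in the sources used here: annotation release and strand setting. Reads of overlapping and antisense genes may have been assigned either way. Symbols, coordinates and transcripts came from GENCODE M21 (mm10), which holds 54495 of the 54532 identifiers, and all 30 members matched. Total counts were 15624020 to 19601850 per library. Counts were analysed with edgeR 4.0.16 in R 4.3.3: filterByExpr by group (17055 genes), TMM, 1 coefficient per group over all 8 libraries (4 residual degrees of freedom), quasi-likelihood F-test with robust dispersion (legacy=FALSE), and Benjamini-Hochberg adjustment over all genes at 0.05. CPM used TMM-scaled totals. SE is the log2 fold change over the square root of F. Alternatives were DESeq2 1.42.0, limma-voom (limma 3.58.1), the older quasi-likelihood form, RLE factors, no filter, at least 10 counts in at least 4 libraries, the replicate number as a block, only the 4 libraries compared, and each library left out. The fit was tested on simulated data. The 2 libraries of each group differed by more than sampling noise (chi-square per degree of freedom 7.41 to 59.8). The members and lists were chosen with earlier results of these data known. Up to 4 members per role group with the highest mean CPM are given by library, others by range. A few genes of other lists (Cd69, Jchain, Igha, Ighg3, Mzb1, Inpp5d, Tnfrsf17, Glycam1, Ccl21a) and the variable genes named were chosen after their values were seen. 1 gene of these lists is not reported here.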

Additional observations from a re-analysis of the deposited data

Results flagged for a closer look

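Ighg2c was the 1 B-lineage gene whose DMXAA effect differed between the genotype labels by edgeR's quasi-likelihood test of the difference, where 1.2% of all genes did. The fitted difference, knockout-labelled minus wild-type, was -14.01 on the log2 scale (SE 2.35). Its size depends on the prior count, since both knockout-labelled DMXAA libraries had 0 counts, and it contains the contrast through which the list came into view. All 23 wild-type DMXAA counts came from replicate 1. The Ighg2c call did not hold without wild-type DMSO replicate 1, without wild-type DMSO replicate 2 or without wild-type DMXAA replicate 1.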

How the results depend on the processing

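The count of B-lineage genes called with DMXAA in wild-type islets was 0 under every alternative that kept all 8 libraries or only the 4 compared, and 0 to 6 without 1 library. In knockout-labelled islets it was 16, but 0 with limma-voom, 4 with the older quasi-likelihood form, 0 with the stricter filter (8 genes tested), and 1 to 21 without 1 library. Under DMSO the 6 calls between genotype labels became 3 with DESeq2, 2 with limma-voom, 1 with the older form, 18 with no filter, 1 with the stricter filter, 3 with only the 4 libraries compared, and 1 to 7 without 1 library. Under DMXAA the count of 0 became 1 with DESeq2 and 0 to 2 without 1 library. The 1 call of the difference between effects became 0 with limma-voom, the older form, no filter or the stricter filter, and was 0 to 2 without 1 library. The knockout-labelled count of 16 also became 18 with no filter (30 genes tested) and 20 with only the 4 libraries compared (28 tested). The cause of these changes was not tested. A fit that leaves out a library keeps 1 library in its group, whose spread it cannot measure. Replicate numbers are shared across groups, but same-numbered libraries did not deviate together (correlations of deviations from group means -0.10 to 0.07, with 4 of 8 libraries closest to their own number). With the replicate block the counts were 0, 15, 9, 1 and 1 in the order above, so the block added 1 call under DMXAA. No gene called in the main fit changed sign in the contrast that called it. That fit called 0 genes with DMXAA in wild-type islets, where signs of several genes turned without 1 library. Genes under about 10 counts per library limit what can be told in the wild type.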
